A study of Mus musculus with 8 samples.

Results

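The genes described here are 10 members of the glycolytic pathway and of the transcriptional response to low oxygen, out of 28001 features counted in each library. They were taken by symbol (*Slc2a1*, *Hk2*, *Pfkp*, *Aldoa*, *Pgk1*, *Eno1*, *Ldha*, *Pdk1*, *Bnip3* and *Vegfa*), all 10 were present, and they were followed by stage, limb segment and cell type in 8 single-cell RNA-seq libraries of mouse forelimb. Of 57469 cell barcodes, 53085 had at least 3000 unique molecular identifiers (UMIs, each marking 1 captured transcript) with no more than 10% of them mitochondrial, and these were kept.

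Mice were C57BL/6J. By the labels the sorted cells came from embryos homozygous for a CreERT2 recombinase placed in the *Hic1* locus and for a Rosa26 reporter that makes tdTomato after recombination, and the dams of all libraries were given 7.5 mg of tamoxifen at embryonic day 10 (E10). The sorted libraries held tdTomato+ cells without the blood and endothelial surface markers CD45, CD117, CD31, CD11b, F4/80 and Ter119, 1 library for each day from E11.5 to E14.5 and a pair from E16.5, proximal (elbow with the adjoining bone segments) and distal (lower forearm and paw). The other two libraries, whole 1 and whole 2, held lineage-negative cells of whole E11.5 limbs, tdTomato+ and tdTomato- alike, and their labels name the reporter without spelling out the alleles. Each library pooled limbs of several embryos, so that only whole limb E11.5 had 2 libraries, and nothing states that these came from separate litters.

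Glycolysis splits glucose into pyruvate in the cytosol, and lactate dehydrogenase then turns pyruvate into lactate so that the pathway can run on without the mitochondria. Where oxygen is scarce, hydroxylation of the HIF alpha subunits by prolyl hydroxylases slows, HIF accumulates, pairs with ARNT and binds a short core motif near its target genes, among them many glycolytic genes. Growth plate cartilage has no blood vessels, and chondrocytes are known for a high glycolytic rate and for their dependence on HIF1A. Roles within the list differ. *Slc2a1* encodes the glucose transporter GLUT1, *Hk2* hexokinase 2, which traps glucose in the cell, *Pfkp* the platelet form of phosphofructokinase, *Aldoa* aldolase A, *Pgk1* phosphoglycerate kinase, *Eno1* enolase and *Ldha* the muscle-type subunit of lactate dehydrogenase. *Pdk1* encodes a kinase that shuts off pyruvate dehydrogenase, *Bnip3* a mitochondrial outer membrane protein that takes part in mitophagy, and *Vegfa* the secreted factor that draws in blood vessels.

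In GRCm38, the assembly behind mm10, the 10 genes lie on chromosomes 2 (*Pdk1*), 4 (*Slc2a1* and *Eno1*), 6 (*Hk2*), 7 (*Ldha*, *Aldoa* and *Bnip3*), 13 (*Pfkp*), 17 (*Vegfa*) and X (*Pgk1*), and all are annotated as protein coding. Promoter windows were printed for *Slc2a1*, *Hk2*, *Pdk1* and *Bnip3*, the members that passed the test between chondrocyte-marker and other cells below. They come from RefSeq (GRCm38.p6) and run from 250 bases before to 50 bases after an annotated start. Capitals mark the letters ACGTG, the HIF core, and GCGTG, a variant of it, on either strand (CACGT and CACGC on the other), and overlapping matches are counted separately.
Slc2a1, chr4:119108495-119108794, plus strand: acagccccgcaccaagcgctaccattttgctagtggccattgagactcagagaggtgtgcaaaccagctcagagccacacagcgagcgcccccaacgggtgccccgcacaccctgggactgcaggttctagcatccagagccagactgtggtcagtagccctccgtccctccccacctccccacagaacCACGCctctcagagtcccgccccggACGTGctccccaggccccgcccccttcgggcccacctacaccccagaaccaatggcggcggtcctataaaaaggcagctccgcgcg
Hk2, chr6:82774405-82774704, minus strand: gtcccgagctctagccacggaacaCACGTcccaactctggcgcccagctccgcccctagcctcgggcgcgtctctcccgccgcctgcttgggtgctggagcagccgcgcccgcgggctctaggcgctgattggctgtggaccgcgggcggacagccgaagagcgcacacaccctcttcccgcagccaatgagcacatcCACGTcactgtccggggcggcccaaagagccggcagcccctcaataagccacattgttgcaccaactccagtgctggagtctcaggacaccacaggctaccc
Pdk1, chr2:71872974-71873273, plus strand: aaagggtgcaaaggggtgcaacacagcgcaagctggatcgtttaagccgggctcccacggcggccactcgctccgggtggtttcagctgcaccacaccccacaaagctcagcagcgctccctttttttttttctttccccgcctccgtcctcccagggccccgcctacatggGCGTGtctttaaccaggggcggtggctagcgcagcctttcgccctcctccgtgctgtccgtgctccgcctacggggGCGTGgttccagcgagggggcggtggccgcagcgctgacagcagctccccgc
Bnip3, chr7:138909457-138909756, minus strand: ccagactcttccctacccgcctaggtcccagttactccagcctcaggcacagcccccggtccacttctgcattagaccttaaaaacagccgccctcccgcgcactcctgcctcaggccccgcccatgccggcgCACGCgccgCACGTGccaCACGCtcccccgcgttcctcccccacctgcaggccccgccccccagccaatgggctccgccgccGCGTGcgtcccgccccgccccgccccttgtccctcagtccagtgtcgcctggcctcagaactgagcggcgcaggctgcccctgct
The *Slc2a1* window held 1 match of each form and the *Hk2* window 2 of ACGTG. The *Pdk1* window shown held 2 matches, both GCGTG, and *Bnip3* had 5 matches. Of the other members, an *Ldha* window had the most with 7, in part from CACGTG palindromes that count on both strands. Each of the 10 genes had a match in at least 1 of its windows, as had 46.7% of 27025 genes, although 1 window each of *Aldoa*, *Pdk1* and *Vegfa* had none. For *Vegfa* the window without a match (chr17:46032328-46032627, minus strand) spanned the annotated start of the gene. The *Vegfa* matches lay in a window inside the gene (chr17:46025114-46025413). Counted by window, 43.8% of all 32851 promoter windows of this length had a match and 19.6% had ACGTG. A match describes these letters only and shows no binding.

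Total UMIs of the kept cells ran from 31500092 (E11.5) to 234893903 (E16.5 proximal), and median UMIs per cell from 6788 (E13.5) to 18473 (E16.5 proximal). Reagent kit v2 was used through E13.5 and v3 from E14.5 on, so that kit and stage cannot be told apart across that step. By the study's methods E11.5 samples were made with v2, and the whole limb libraries were taken as such. They shared 24 to 48 barcodes with each sorted v2 library and at most 5 with any v3 library. The largest share for any pair of libraries was 1.04% of the kept barcodes of the smaller one. Limbs were dissociated with Dispase up to E12.5 and with collagenase and pronase from E13.5.

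Levels of the 10 genes were first compared over all mesenchymal cells of each library, in CPM (UMIs of a gene scaled by all UMIs of the same cells, as counts-per-million), after leaving out clusters named myogenic, epithelial, endothelial, immune, erythroid or glial. With 1 library per stage there was no test, and intervals cover counting error only. Of the sorted libraries, E13.5 stood highest for *Slc2a1*, *Hk2*, *Aldoa*, *Pgk1*, *Eno1*, *Ldha*, *Pdk1* and *Bnip3*, whereas *Pfkp* and *Vegfa* were highest at E16.5 distal. The E13.5 library also held the largest share of chondrocyte-marker cells, defined below (27.9% of its mesenchymal cells, against 7.35% to 15.6% in the other sorted libraries). In the cells outside that class E13.5 stood highest for 6 of the 10 genes, *Slc2a1* being higher there at E12.5 (44.1 CPM against 41.8) and *Hk2* at E14.5 (33.2 against 28.4). How many of all genes were highest at E13.5 was not counted, so these numbers describe the members only.

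**Figure D1:**
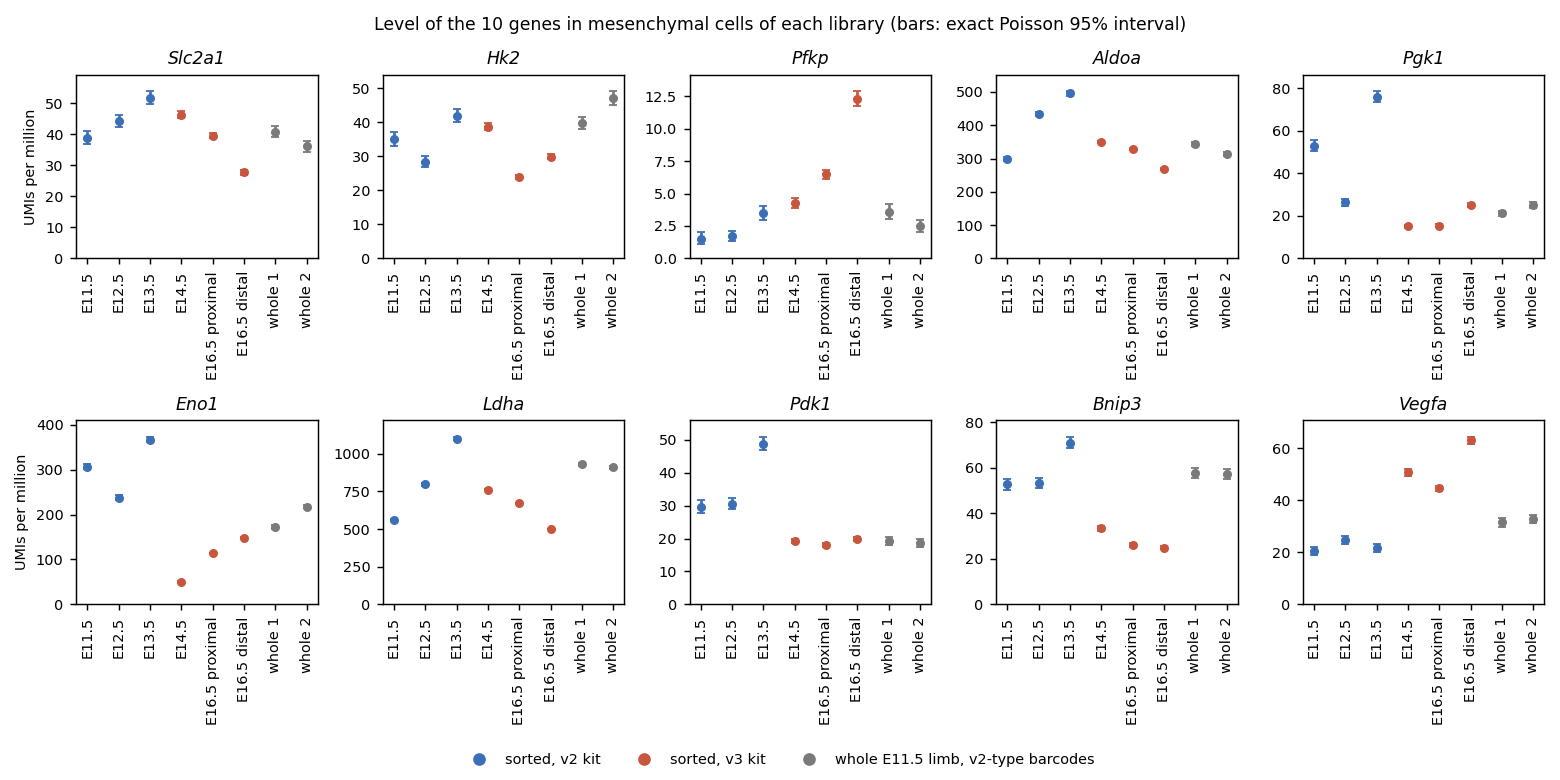
Level of each of the 10 genes, in CPM over the mesenchymal cells of a library, with exact Poisson 95% intervals, in 8 libraries. Of the 6 sorted libraries, E13.5 is highest for 8 genes, and *Vegfa* lies above 44 in the v3 libraries and below 25 in the sorted v2 libraries.

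*Ldha* was at 561.0 CPM at E11.5, 796.0 CPM at E12.5 and 1102 CPM at E13.5, then 760.9 CPM at E14.5, and at E16.5 it was 670.5 CPM in the proximal and 497.9 CPM in the distal segment. *Aldoa* had the same shape, with 298.2, 433.3, 495.5, 348.4, 329.4 and 268.0 CPM in that order. Both were higher at each successive v2 stage and lower in each library after E13.5.

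*Slc2a1* went from 38.8 CPM at E11.5 over 44.2 and 51.7 to 46.3 at E14.5, with 39.5 in the proximal and 27.7 in the distal segment at E16.5. *Hk2* lay between 23.9 CPM (E16.5 proximal) and 41.8 CPM (E13.5). *Pdk1* was at 29.7, 30.6 and 48.8 CPM in the v2 sorted libraries and between 18.0 and 19.9 in the v3 libraries. *Bnip3* was at 52.6, 53.2 and 71.0 CPM over the 3 earliest stages, 33.3 CPM at E14.5, and 26.0 and 24.9 CPM in the E16.5 segments, proximal first.

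*Pgk1* and *Eno1* did not follow a smooth course. *Pgk1* was at 53.0 CPM at E11.5, 26.3 CPM at E12.5, 75.9 CPM at E13.5 and 15.1 CPM at E14.5, with 15.4 CPM in the proximal segment and more in the distal one (exact interval 24.2 to 25.8 CPM). *Eno1* was at 306.7, 237.8, 367.1, 49.9, 113.2 and 148.7 CPM in that order. For both, E12.5 lay below its neighbours and the E14.5 library was lowest. Both genes have near-identical copies elsewhere in the genome (*Eno1b* is one for *Eno1*, at 0.854 to 12.3 CPM over the 8 libraries), and how reads were shared with them was not tested.

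*Pfkp* was rare in every library, from 1.52 CPM at E11.5 (48 UMIs) to 12.3 CPM at E16.5 distal. Like *Pfkp*, *Vegfa* was higher in the sorted v3 than in the sorted v2 libraries. It was at 20.4, 24.7 and 21.6 CPM up to E13.5, then 50.7 at E14.5 and, at E16.5, 44.6 in the proximal and 63.1 in the distal segment. The step in *Vegfa* fell between the v2 and v3 libraries.

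From E11.5 to E13.5, within 1 kit, 4 of the 10 genes were higher by 1.5-fold or more (*Ldha* 1.96-fold, exact 95% interval 1.93 to 2.00, *Aldoa* 1.66-fold, *Pdk1* 1.65-fold and *Pfkp* 2.28-fold, 1.64 to 3.23), and none was lower by that much. For comparison, 11.8% of 10454 genes with at least 5 CPM in either library were higher by that fold and 13.2% lower, on the ratio of CPM + 1 that these counts use. *Pfkp* was below 5 CPM in both libraries and is not among those genes, so that 3 of 9 members stand against this share. *Ldha* and *Aldoa* moved at both steps. From E11.5 to E12.5 none was higher by that fold (background 6.84% of 10259 genes) and *Pgk1* was lower (0.496-fold, background 5.3%). From E12.5 to E13.5 *Pgk1* (2.89-fold), *Eno1* (1.54-fold) and *Pdk1* (1.59-fold) were higher, against 4.89% of 10366 genes, and none lower, against 4.98%. *Pfkp* was higher too (2.03-fold), again below 5 CPM in both libraries and outside that background. The change of dissociation enzymes fell at the same step and cannot be told apart from the stage. From E14.5 to E16.5 proximal, within v3, only *Eno1* was higher by 1.5-fold or more (2.27-fold, background 10.4% of 10324 genes) and *Hk2* lower (0.618-fold, background 19%), and *Pfkp* had a CPM ratio of 1.53 but fell short on CPM + 1. The E14.5 limbs were not divided, so that segment cannot be told apart from stage there.

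At E11.5 the sorted cells were set against the 2 whole limb libraries. The sorted arm was 1 library, and the test, with 1 residual degree of freedom, assumes that it varies like the whole limb ones, which are not stated to come from separate litters. Its calls therefore compare these 3 libraries, and no test was left when a whole limb library was left out. Of the members, 3 were higher in the sorted library (background 26.3% of 15139 genes) and 6 lower (background 25.9%). edgeR's quasi-likelihood test with Benjamini-Hochberg adjustment was used for this and all later adjusted p-values.

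*Pgk1* was at 53.0 CPM in sorted cells against 21.1 in whole 1 and 25.2 in whole 2, a log2 fold change of 1.01 ± 0.12 (SE). *Eno1* was at 306.7 CPM against 172.5 and 217.8 (0.47 ± 0.10), and *Pdk1* at 29.7 against 19.2 and 18.6 (0.47 ± 0.13). In all 3 genes the sorted library lay above both whole limb libraries.

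*Ldha* fell by 0.89 ± 0.13 on the log2 scale in the sorted library, from 929.8 and 909.2 CPM to 561.0. *Vegfa* was at 20.4 CPM against 31.5 and 32.8 (−0.83 ± 0.13), and *Hk2* at 35.1 against 39.8 and 47.1 (−0.49 ± 0.11). *Pfkp* (−1.17 ± 0.26), *Aldoa* (−0.32 ± 0.11) and *Bnip3* (−0.31 ± 0.10) were also lower, while *Slc2a1* at 38.8 against 40.8 and 36.1 CPM lay between the whole limb libraries and was not called.
Without cells that had at least 3 mitotic markers, *Hk2* and *Bnip3* were not called, DESeq2 did not call *Eno1* and *Bnip3*, and 5 members were not called without the filter on low counts.

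Chondrocytes were then set against the other cells of each library. A chondrocyte-marker cell was one with a UMI for at least 3 of 11 cartilage genes (*Sox9*, *Col2a1*, *Acan*, *Col9a1*, *Col9a2*, *Col9a3*, *Col11a2*, *Matn1*, *Matn3*, *Hapln1* and *Lect1*) after each cell was thinned to 3000 UMIs, and no member was used. There were 6885 such cells and 44741 other mesenchymal cells, with 483, 737, 1710 and 995 of the former in the libraries from E11.5 to E14.5, 1362 and 616 in the proximal and distal segments, and 477 and 505 in whole 1 and whole 2. Of chondrocyte-marker cells, 28.0% lay in chondrocyte-like clusters at E11.5. The share was 50.6% in the E12.5 library, 47.8% in that of E13.5 and 53.9% in that of E14.5. It was 80.5% in the proximal and 65.3% in the distal segment, with 50.7% in whole 1 and 70.3% in whole 2. Median UMIs per cell were below those of the other cells in all 8 libraries, by most in whole 1 (5752 against 9020).

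Over the 8 libraries, with library as a term, 4 of the 10 genes were higher in chondrocyte-marker cells and none was lower. Of 16028 genes tested, 5.78% were higher and 13.7% lower (927 and 2198 genes; with DESeq2's scaling 1396 and 1941). The called members were the transporter *Slc2a1*, the first enzyme *Hk2*, the pyruvate dehydrogenase kinase *Pdk1* and *Bnip3*. The median log2 fold change was 0.42 over the members and −0.06 over all genes tested. The count depended on how the class was drawn. With at least 2 cartilage genes it was 1, *Hk2*, the other called members being at adjusted p of 0.0699 to 0.0732 in edgeR, and with chondrocyte-like clusters as the class it was 1, *Pdk1*, the others being at 0.0572 to 0.0906.

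*Pdk1* had the smallest of these differences and the least spread. It was higher in chondrocyte-marker cells of all 8 libraries, as 5.97% of genes were, with ratios from 1.14 (E12.5) to 1.67 (E13.5), and a log2 fold change of 0.46 ± 0.08 (SE, adjusted p = 0.00291 in edgeR). Leaving out any 1 library kept it past the threshold (adjusted p at most 0.0116). At E11.5 it was at 37.6 CPM in chondrocyte-marker cells against 28.4 in the others, and at E16.5 distal at 30.0 against 19.1.

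*Bnip3* was also higher in all 8 libraries (0.96 ± 0.25, adjusted p = 0.0221). Its level in chondrocyte-marker and other cells was 72.1 and 49.7 CPM at E11.5, 64.6 and 51.3 at E12.5, 116.7 and 55.1 at E13.5, and 59.4 and 29.9 at E14.5. At E16.5 proximal it was 104.4 and 14.9 CPM, a ratio of 6.99 (exact 95% interval 6.63 to 7.38), and at E16.5 distal 61.4 and 22.1 CPM. Whole 1 had 85.6 and 55.8 CPM and whole 2 had 77.3 and 55.9. The ratio of E16.5 proximal was the highest of any member in any library, and the other cells of that library held the lowest *Bnip3* level. The call was lost without the E14.5 (adjusted p = 0.0532) or the E16.5 distal library.

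*Slc2a1* was level at E11.5 (40.0 CPM against 38.6) and E12.5 (45.3 against 44.1). It was higher in chondrocyte-marker cells at E13.5 (80.3 against 41.8), E14.5 (87.7 against 40.9), E16.5 proximal (77.4 against 34.1) and E16.5 distal (87.5 against 23.2), where the ratio was 3.78 (3.51 to 4.06). In whole 1 it was 51.0 against 40.1 and in whole 2 47.8 against 35.2. Its level in chondrocyte-marker cells changed little from E13.5 on, while that in the other cells was lowest at E16.5 distal. The difference over all libraries was 0.71 ± 0.21 (adjusted p = 0.0340).

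*Hk2* differed in 2 ways from *Slc2a1*. It was already higher at E11.5 (49.4 CPM against 32.9) and E12.5 (49.4 against 24.9) in the sorted cells, and it was not higher in whole 1 (35.6 against 40.0) or whole 2 (44.4 against 47.3). The ratio was 2.83 at E13.5 and 2.42 at E14.5, and it was 1.71 in the proximal and 2.82 in the distal segment. Its fitted difference was 0.76 ± 0.22 (adjusted p = 0.0327).
The calls of *Slc2a1* and *Hk2* rested on several libraries, *Slc2a1* passing the threshold in 4 of the 8 fits that left out 1 library (adjusted p 0.0296 to 0.0891) and *Hk2* in 3 (0.0106 to 0.0879). *Slc2a1* lost it without E13.5, E14.5, E16.5 proximal or E16.5 distal, and *Hk2* without any one sorted library other than E16.5 proximal.

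**Figure D2:**
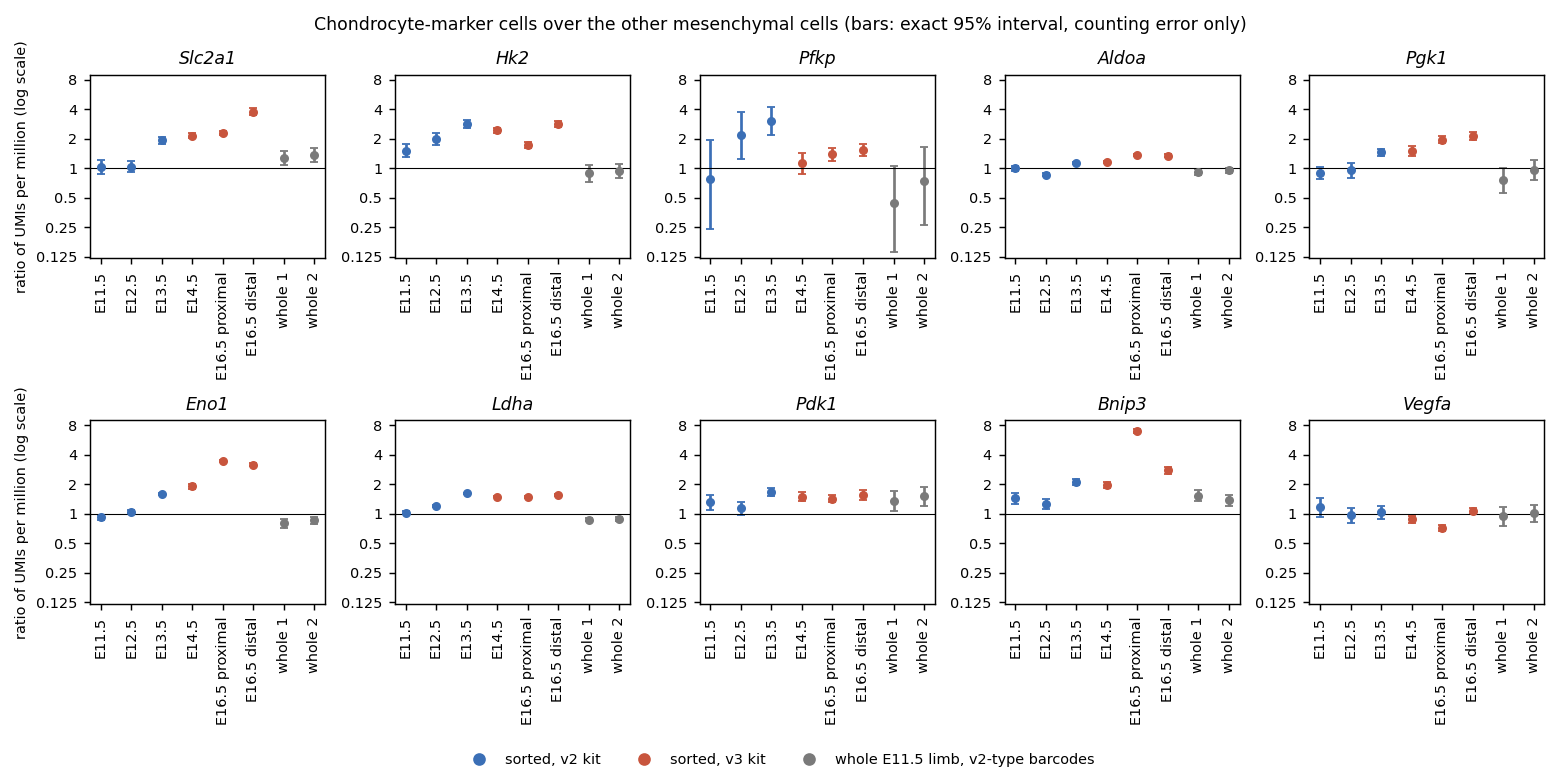
Ratio of the level in chondrocyte-marker cells to that in the other mesenchymal cells for each gene and library, on a log axis, with exact 95% intervals that cover counting error only. *Pdk1* and *Bnip3* lie above 1 in every library, and *Slc2a1*, *Pgk1*, *Eno1* and *Ldha* are furthest above 1 in the libraries from E13.5 on.

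At the lower steps of the pathway, *Eno1* and *Pgk1* had larger ratios in the sorted libraries from E13.5 on than in the earlier ones. Kit and dissociation also changed over these stages and cannot be told apart from stage. *Eno1* had a ratio of 0.926, 1.05, 1.60 and 1.92 in the libraries from E11.5 to E14.5, then 3.47 in the proximal and 3.18 in the distal segment, but 0.800 and 0.865 in the whole limb libraries. In CPM this was 300.6 in chondrocyte-marker cells against 86.6 in the others at E16.5 proximal, and 286.9 against 309.7 at E11.5. *Pgk1* ran from 0.893 and 0.954 to 1.44, 1.51, 1.95 and 2.13 over the same sorted libraries, with 0.762 in whole 1 and 0.957 in whole 2. Neither was called over the 8 libraries (adjusted p = 0.224 and 0.312).

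*Ldha* was at 1537 CPM against 950.6 at E13.5, 1077 against 719.3 at E14.5, 939.4 against 632.3 at E16.5 proximal and 753.4 against 478.3 at E16.5 distal. At E11.5 it was 576.4 against 558.6, and in whole 1 and whole 2 it was lower in chondrocyte-marker cells (ratios 0.874 and 0.890). *Aldoa* never moved by more than 1.35-fold, at E16.5 proximal, and its ratio was 0.860 at E12.5. *Pfkp* rested on few UMIs early on (5 in chondrocyte-marker cells at E11.5) and had ratios from 0.440 (whole 1) to 3.03 (E13.5, interval 2.19 to 4.19). None of these 3 genes was called over all libraries.

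*Vegfa* did not follow the enzymes. It had a ratio of 1.17, 0.964, 1.03 and 0.885 from E11.5 to E14.5, then 0.712 in the proximal (interval 0.663 to 0.765) and 1.07 in the distal segment, and 0.941 and 1.01 in the whole limb libraries. The fitted difference was −0.12 ± 0.08 (adjusted p = 0.326). Its interval lay below 1 at E14.5 and E16.5 proximal.

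The fits were also made for early and late libraries apart. By the study's methods E16.5 forelimbs were divided into the segments, so that these libraries may share embryos and are not shown to be independent. In the 3 v3 libraries alone, 8 of the 10 genes were higher in chondrocyte-marker cells, against 7.79% of 16819 genes, and none was lower, against 11.1%. Log2 fold changes there were 1.76 ± 0.35 for *Bnip3* (adjusted p = 0.0206), 1.48 ± 0.17 for *Eno1* (0.00455), 1.40 ± 0.16 for *Slc2a1* (0.00404), 1.19 ± 0.14 for *Hk2*, 0.89 ± 0.13 for *Pgk1*, 0.61 ± 0.07 for *Ldha*, 0.59 ± 0.10 for *Pdk1* and 0.36 ± 0.08 for *Aldoa* (adjusted p = 0.0327). *Pfkp* (0.43 ± 0.15, adjusted p = 0.0969) and *Vegfa* (−0.18 ± 0.12, 0.312) did not pass.
In the 5 v2 libraries, 2 were higher, against 4.67% of 14646 genes, and none lower, against 4.84%. They were *Bnip3* (0.59 ± 0.11, adjusted p = 0.0154) and *Pdk1* (0.46 ± 0.10, 0.0210). *Slc2a1* (0.35 ± 0.14, adjusted p = 0.156) and *Hk2* (0.58 ± 0.25, 0.198) did not pass there.

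The test of whether the chondrocyte-marker difference itself differed between v3 and v2 libraries called 3 members, all with the larger difference in the v3 libraries, against 2.24% of 16028 genes in that direction and 1.85% in the other. They were *Eno1* (log2 1.54 ± 0.28, adjusted p = 0.0209), *Slc2a1* (1.12 ± 0.24, 0.0309) and *Pgk1* (0.97 ± 0.23, 0.0414). *Bnip3* (1.24 ± 0.35, adjusted p = 0.0729), *Aldoa* (0.51 ± 0.14, 0.0604) and *Ldha* (0.57 ± 0.23, 0.164) did not pass, nor did *Hk2* (0.68 ± 0.39, 0.318), *Pdk1* (0.19 ± 0.15), *Vegfa* (−0.12 ± 0.16) or *Pfkp* (0.01 ± 0.54).
Kit and stage cannot be told apart in this test. Within the v3 libraries, 4 members at E14.5 (background 4.35%), 5 in the proximal (9.41%) and 7 in the distal segment (9.5%) of E16.5 were higher by 1.5-fold or more in chondrocyte-marker cells. The median ratio of the members was 1.03, 1.09, 1.63 and 1.49 from E11.5 to E14.5, 1.58 in the proximal and 1.81 in the distal segment, and 0.902 and 0.952 in the whole limb libraries. The calls were lost when chondrocyte-like clusters replaced the marker-called cells (18 genes called in all, against 656), and 0 members were called without E11.5, E16.5 proximal, E16.5 distal or whole 2.

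**Figure D3:**
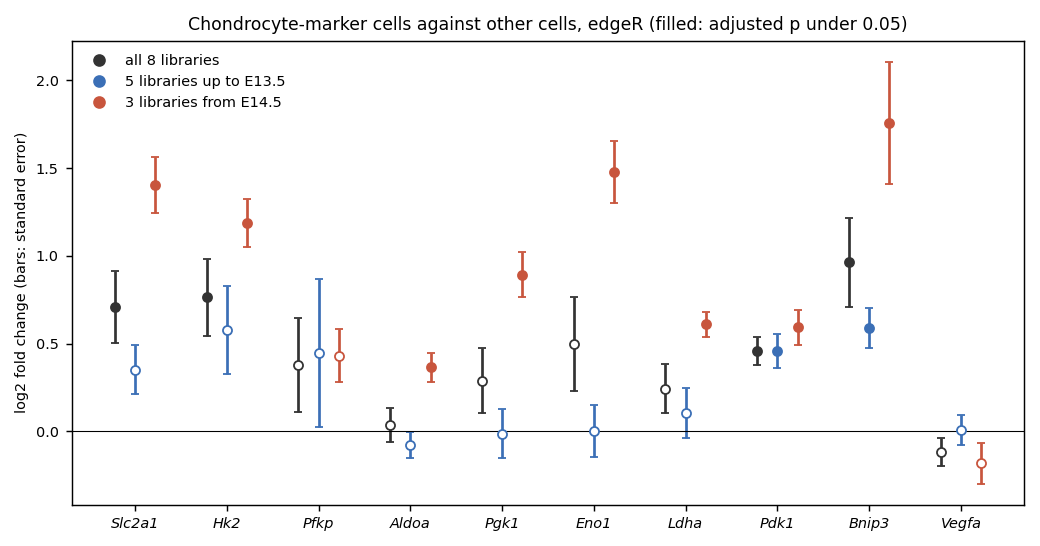
Fitted log2 fold change of chondrocyte-marker against other cells for the 10 genes, with standard errors, in all 8 libraries, in the 5 v2 libraries and in the 3 v3 libraries, filled where the adjusted p in edgeR is under 0.05. The v3 fit calls 8 genes and the v2 fit *Pdk1* and *Bnip3*.

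Other classes of cells also differed between chondrocyte-marker and other cells. Cells with at least 3 mitotic markers made up 34.8% of chondrocyte-marker cells against 58.4% of the others in whole 1 and 35.2% against 57.6% in whole 2, and in the sorted libraries from 11.4% to 36.9% against 9.94% to 38.0%. Without them *Slc2a1*, *Hk2*, *Pdk1* and *Bnip3* were called as before. At E16.5 proximal the summed level of tenocyte markers was 1339 CPM against 670, that of fibroblast markers 717 against 2134 and that of epithelial markers 274 against 854. At E16.5 distal tenocyte markers were at 933 CPM against 576 and fibroblast markers at 964 against 1849. Erythroid markers were at 9.15 CPM against 307 in whole 1, 3.41 against 251 in whole 2, 0.894 against 120 at E16.5 proximal and 1.88 against 81.4 at E16.5 distal. The part of these tenocyte, fibroblast, epithelial and erythroid levels in the members' differences was not tested. The summed level of 9 immediate early and stress genes was 871 CPM in chondrocyte-marker cells against 2042 in the others at E16.5 proximal, and 1327 against 2334 at E16.5 distal. It was 2815 against 1671 at E12.5 and 1653 against 1342 at E13.5, and higher in chondrocyte-marker cells of both whole limb libraries too, so that its direction differed between libraries. Its part in the members' differences was not tested. At E16.5 proximal, an unnamed cluster of 324 cells led by keratin genes, with 6 epithelial markers raised, counted as mesenchymal, mostly among the other cells (9135 with it and 8821 without). Without it the *Slc2a1* ratio there was 2.88 in place of 2.27, that of *Eno1* 3.54 in place of 3.47 and that of *Bnip3* 7.01 in place of 6.99.

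The members were also followed over the number of cartilage genes detected in a cell. At E13.5 the median log2 ratio against cells with 0 of these genes was −0.01 with 2, 0.16 with 3, 0.50 with 4 and 0.94 with 5 or more. At E16.5 distal it was 0.36, 0.66, 0.70 and 1.06, so that cells with 2 cartilage genes, counted here as other cells, already stood above cells with none. At E16.5 proximal it was 0.12 with 4 and 0.76 with 5 or more. In the whole limb libraries no number of cartilage genes gave a median above 0. Cells at the edge of the class were common early on, with 620 cells at 2 cartilage genes and 332 at 3 in the E11.5 library.

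**Figure D4:**
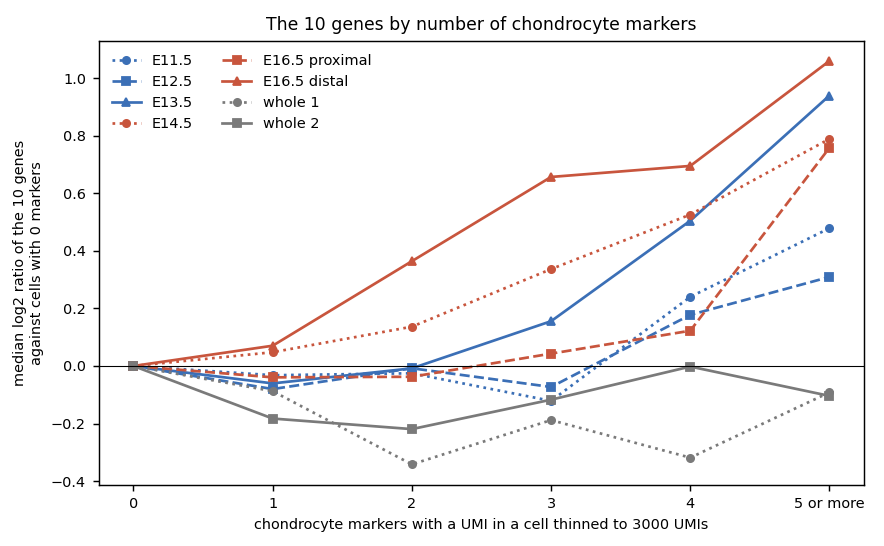
Median over the 10 genes of the log2 ratio of CPM + 1 against cells with 0 cartilage genes, by the number of the 11 cartilage genes with a UMI, 1 line per library. The 6 sorted libraries are above 0 at 5 or more genes (39 cells at E11.5), and both whole limb libraries are below it.

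At E16.5 proximal, chondrocyte-marker cells were also split by hypertrophic genes. Of them, 291 had a UMI for *Col10a1*, *Ihh*, *Pth1r* or *Panx3* at 3000 UMIs and 1071 had none. *Bnip3* was at 107.1 CPM in the first group against 103.7 in the second, and *Slc2a1* at 79.9 against 76.8. *Eno1* was at 330.7 against 292.5 and *Vegfa* at 26.4 against 34.7. *Pth1r* had 964 UMIs in the first group and 1204 in the second, so the split did not isolate hypertrophic cells. *Col10a1*, the collagen of hypertrophic cartilage, had 1281 UMIs in the first group. In E16.5 distal chondrocyte-marker cells it had 3 UMIs in all.

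The E16.5 segments were compared within each class, with 1 library each and no test. In chondrocyte-marker cells 4 members were higher in the distal segment by 1.5-fold or more, against 20.9% of 10177 genes, and *Bnip3* was lower, against 8.46%. *Hk2* was at 74.6 CPM distal and 37.5 proximal (ratio 1.99, interval 1.81 to 2.19), *Vegfa* at 67.4 and 32.9 (2.04, 1.85 to 2.26), *Pgk1* at 49.3 and 26.9 (1.83) and *Pfkp* at 18.2 and 8.55 (2.13). *Bnip3* was at 61.4 CPM distal and 104.4 proximal (0.588, 0.540 to 0.640). *Ldha* (0.802) and *Aldoa* (0.823) had ratios below 1, and *Slc2a1* (1.13), *Pdk1* (1.22) and *Eno1* (1.36) above 1, all short of that fold. The chondrocyte-marker cells of the segments also differed in make-up. Their summed cartilage gene level was 39955 CPM proximal and 15597 distal, and when both libraries were clustered together, 1 chondrocyte-like cluster was 97.2% proximal and the other 2.37% proximal. The part of this in the members' values was not tested.

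In the other mesenchymal cells, *Pfkp* (11.9 CPM distal, 6.19 proximal) and *Pgk1* (23.1 and 13.8) were higher in the distal segment by that fold, against 14.5% of 10134 genes, and none was lower, against 6.62%. *Bnip3* was at 22.1 CPM distal and 14.9 proximal there, in the opposite direction to chondrocyte-marker cells. This difference between classes was not tested. *Slc2a1* was at 23.2 CPM distal and 34.1 proximal, and proximal was 26.4 without the keratin-led cluster. The proximal library was counted with Cell Ranger 3.0.2 and the distal one with 6.0.1, and these cannot be told apart from the segment.

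From E14.5 to E16.5 proximal, *Bnip3* also moved in opposite directions in the classes. In chondrocyte-marker cells it went from 59.4 to 104.4 CPM (1.76-fold, 1.63 to 1.90), with *Eno1* (3.48-fold) and *Pfkp* (1.82-fold) also higher by 1.5-fold or more, against 10.8% of 10205 genes, and *Hk2* lower (0.467-fold, background 20.5%). In the other cells *Bnip3* went from 29.9 to 14.9 CPM (interval of the ratio 0.475 to 0.525, background 19.9% of 10306 genes), and *Eno1* was higher there too (1.92-fold, background 10.5%). The difference between classes was not tested. E14.5 limbs were not divided into segments, so stage and segment cannot be told apart in this step. At E16.5 distal, *Bnip3* was at 61.4 CPM in chondrocyte-marker cells and *Hk2* at 74.6, against 59.4 and 80.3 at E14.5. *Eno1* (408.9 against 86.5) and *Pfkp* (18.2 against 4.70) were higher there too. In the other cells *Bnip3* was at 22.1 CPM at E16.5 distal.

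By cell type, each library was clustered on its own without the members, and clusters named chondrocyte-like from their markers were set against every other mesenchymal cluster, named or not. At E16.5 distal the chondrocyte-like cluster (449 cells) stood above each of the other 19 clusters for 7 members, with Poisson intervals apart for all 7. At E16.5 proximal 3 chondrocyte-like clusters summed (1268 cells) stood above each of 15 others for 6 members, with 5 apart. This held for 4 members at E14.5 (2 apart, 16 other clusters), for 6 at E13.5 (2 apart, 14 others) and for 3 at E12.5 (0 apart, 12 others), and for 0 at E11.5 and in both whole limb libraries. Some of the unnamed clusters held genes of other cells. At E11.5 the highest cluster was one of 327 cells led by the platelet genes *Ppbp* and *Pf4* for 4 members, and for 4 others one of 283 cells led by *Col8a1* and *Ogn*, in which 5 cartilage markers were raised, against 4 in the chondrocyte-like cluster. In whole 2 it was a cluster of 461 cells led by the hemoglobin genes *Hbb-y* and *Hba-x* for 6 members. At E13.5 a cluster of 493 cells named mitotic was led by *Matn3*, one of the cartilage markers. It was the highest other cluster for *Slc2a1* (74.9 CPM, chondrocyte-like 91.1) and *Hk2* (57.1, chondrocyte-like 105.0). Without unnamed clusters led by platelet, hemoglobin or keratin genes the count was 7 in each E16.5 library (6 apart in the proximal and 7 in the distal one), with the other libraries at the counts above. Leaving out the *Col8a1*-led cluster too, it was 1 at E11.5 (0 apart). How many of all genes stood highest in the chondrocyte-like clusters was not counted, so these numbers describe the members only.

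When clusters were pooled by name and unnamed ones left out, the chondrocyte-like class was the highest of 5 classes for 8 members at E16.5 proximal (8 with intervals apart), of 6 classes for 8 members at E16.5 distal (7 apart), of 7 classes for 6 at E14.5 (4 apart) and of 4 classes for all 10 at E13.5 (8 apart). In the other libraries mitotic cells were the sole other named mesenchymal class. The chondrocyte-like class was above them for 8 members at E12.5 (6 apart), 6 at E11.5 (2 apart), 3 in whole 1 (1 apart) and 2 in whole 2 (0 apart). The share of all genes highest in this class was not counted here either. Some of the other names were weak. Of 620 cells named pericyte-like at E16.5 proximal, 464 lay in a cluster led by *Car3*, *Agt* and *Fabp4*. Of 960 named tenocyte-like at E16.5 distal, 425 lay in a cluster led by the mast cell genes *Cma1* and *Cpa3*, with the tendon genes *Tnmd* and *Scx* also among its leading ones, and 535 in a cluster led by *Btc* and *Gdf5*. A proximal cluster of 662 cells led by *Tnmd*, *Cilp* and *Scx* stayed unnamed, so that no tenocyte-like class stood there. Single clusters are therefore given here by their leading genes.

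The chondrocyte-like clusters of E16.5 proximal differed among themselves. In the 638 cells led by *Matn1* and *Epyc*, *Bnip3* was at 149.5 CPM, *Eno1* at 411.0 and *Slc2a1* at 96.0. In the 90 cells led by *Msmp* and *Matn3* they were at 158.7, 336.6 and 123.2 CPM. In the 540 cells led by *Msmp*, *Tnn* and *Gdf5*, a growth factor of forming joints, they were at 32.1, 161.6 and 41.5 CPM, while the highest level of *Bnip3* in any other mesenchymal cluster was 28.8 and that of *Eno1* 164.3.

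*Bnip3* was lowest in the cluster of each segment that was led by *Rgs5*, a pericyte gene, at 4.75 CPM in the proximal and 3.14 in the distal one. In the distal segment it was at 66.7 CPM in the chondrocyte-like cluster and next at 49.0 in one led by *Islr2* and *Pax9*. *Slc2a1* was at 101.1 CPM in the distal chondrocyte-like cluster and at 38.0 or less in the other mesenchymal ones, and in the proximal segment the keratin-led cluster, at 205.6, was above it. *Pdk1* was at 24.3 CPM in chondrocyte-like and 29.4 in *Tnmd*-led cells of the proximal segment. At E14.5 the 2 chondrocyte-like clusters differed too. *Ldha* was at 1336 CPM and *Aldoa* at 558.9 in the 299 cells led by *Matn1* and *Hapln1*, above a cluster led by *Tnmd* (1087 and 478.6 CPM). They were at 799.6 and 302.1 CPM in the 481 cells led by *Vwc2*, so that the sum of both clusters (1024 and 409.3) lay below the *Tnmd*-led one.

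*Pfkp* and *Vegfa* were highest outside the chondrocyte-like cells in both E16.5 segments. *Pfkp* was at 51.4 CPM in the *Rgs5*-led cluster of the proximal segment (156 cells) and at 54.9 in a distal cluster led by *Anxa8* and *Pi16*, against 10.2 and 17.4 in chondrocyte-like cells. *Vegfa* was at 57.9 CPM in the proximal cluster led by *Car3*, against 32.2 in chondrocyte-like cells. In the distal segment it was at 88.4 CPM in the cluster led by *Acta2* and *Rgs5*, against 70.9 in chondrocyte-like cells.

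Chondrocytes were not the highest cells of the libraries when epithelial-like clusters, which the sort did not fully remove, were counted. In the 612 epithelial-like cells of E16.5 proximal *Slc2a1* was at 208.3 CPM, *Ldha* at 1490, *Aldoa* at 821.1 and *Pgk1* at 54.8, above the chondrocyte-like level of each. *Eno1* (284.9) and *Bnip3* (97.1) were below it, and *Vegfa* at 13.2 CPM was lower than in any named mesenchymal class. In whole limbs, myogenic-like clusters had *Hk2* at 71.9 and 89.5 CPM, against 34.5 and 37.6 in chondrocyte-like ones.

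**Figure D5:**
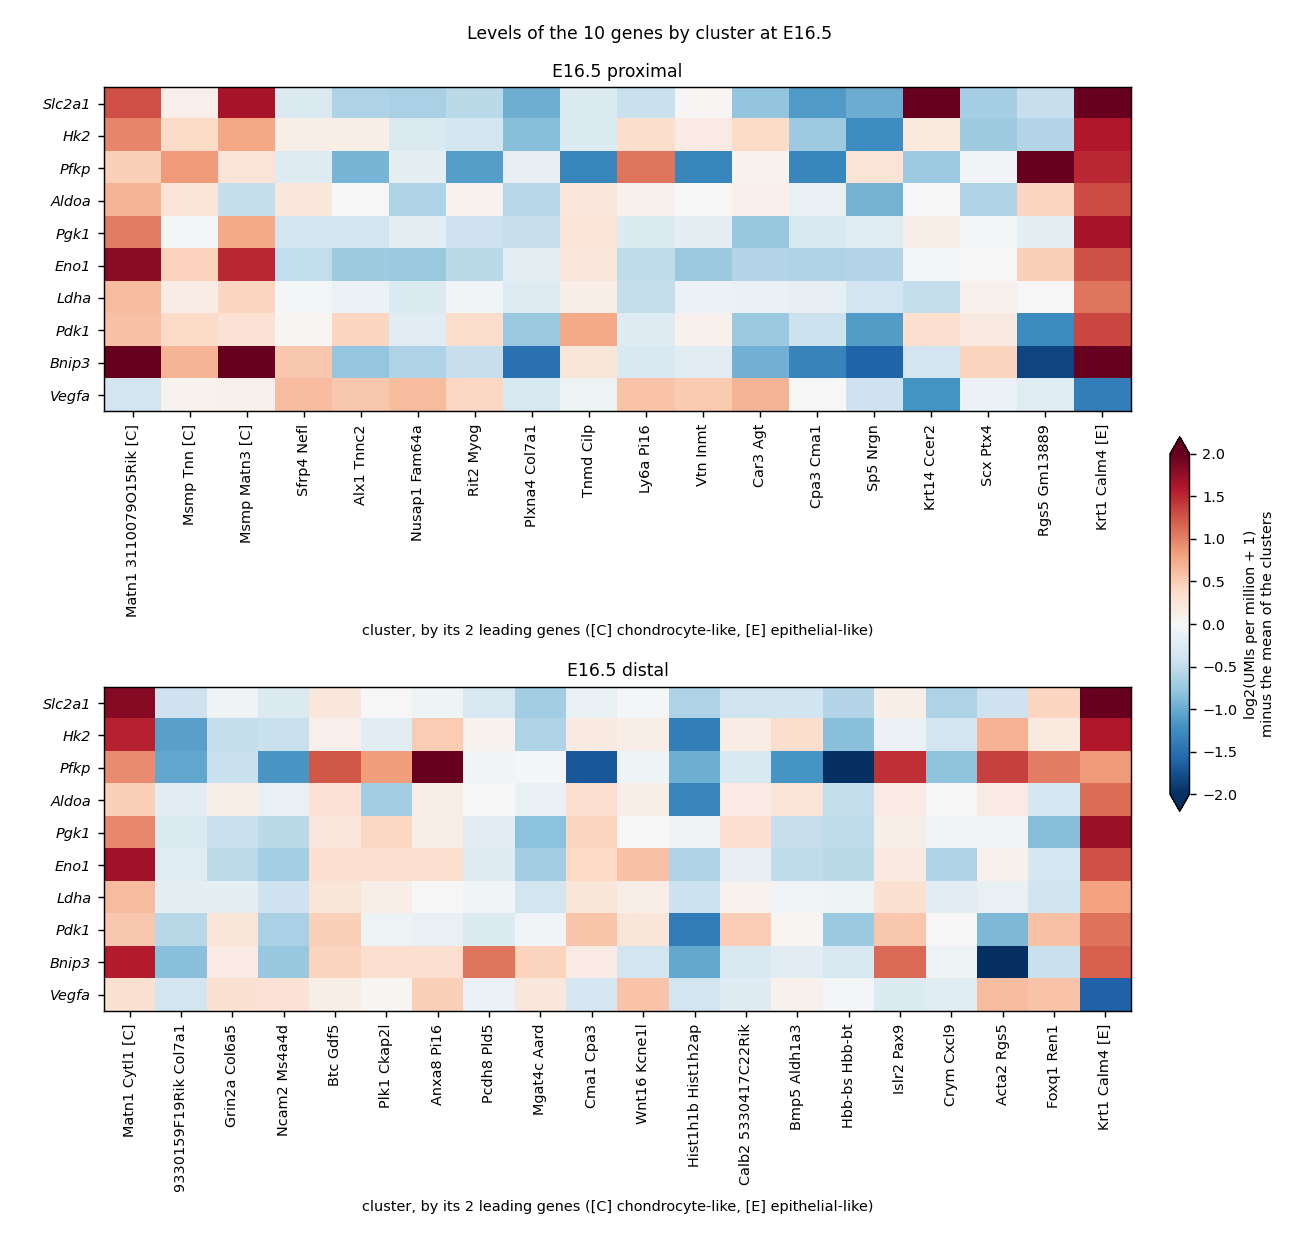
Level of the 10 genes by cluster in both E16.5 libraries, as log2(CPM + 1) minus the mean of the clusters shown, with the colour scale ending at 2 in either direction and 1 cluster of each library not shown. Columns are clusters by their leading genes, chondrocyte-like ones marked C and epithelial-like ones E, and *Bnip3*, *Slc2a1* and *Eno1* are raised in most of the former, less so in the proximal one led by *Msmp* and *Tnn*, while *Vegfa* is lowest in the epithelial-like ones.

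Patterns were compared over 43 library and cell type sums, with epithelial-like, myogenic-like and unnamed cells among them, each library centred on its own mean. The genes that came closest to the mean of the members were found among 8351 genes. They were *Pfkl*, the liver form of phosphofructokinase (Pearson r 0.93), *Higd1a* (0.91), *Ccdc115* (0.91), *Kif21a* (0.88), *Fam162a* (0.87), *Lgals3* (0.86), *Tpi1*, triosephosphate isomerase (0.85), and *Pak1ip1* (0.84). Among the members, the correlation with the mean of the other members ran from 0.40 (*Pfkp*) and 0.65 (*Bnip3*) to 0.88 (*Eno1*), while *Vegfa* was at −0.57. Sums of the same library share depth and cells, so these are descriptions.

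Of 18 other glycolysis genes, 1 was higher and 1 lower in chondrocyte-marker cells over the 8 libraries, against 5.78% and 13.7% of all genes tested, with a median log2 fold change of 0.18 against −0.06. *Eno3*, muscle enolase, was higher (0.51 ± 0.12, adjusted p = 0.0126) and *Slc2a3*, the glucose transporter GLUT3, lower (−0.53 ± 0.15, 0.0272). The median log2 ratio of the 18 genes was −0.06 at E11.5, 0.22 at E13.5, 0.24 at E14.5, 0.47 in the proximal and 0.51 in the distal segment, where the members' was 0.05, 0.71, 0.57, 0.66 and 0.86. At E12.5, in whole 1 and in whole 2 it was 0.0006, −0.07 and 0.02, and the members' was 0.13, −0.15 and −0.07. For 3 of the 18 the difference was larger in the v3 libraries (2.24% of all genes), namely *Pfkl* (1.12, adjusted p = 0.0289), *Slc16a3*, the lactate exporter MCT4 (1.58, 0.0411), and *Pkm*, pyruvate kinase (0.89, 0.0459), which are named after their values were seen.

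Of the 9 genes of the oxygen-sensing machinery, none passed in either direction over the 8 libraries with edgeR. *Hif1a* was higher in chondrocyte-marker cells of all 8 libraries, from 102.8 CPM against 101.2 at E12.5 to 237.9 against 101.3 at E16.5 proximal and 216.2 against 123.2 at E16.5 distal (0.31 ± 0.14, adjusted p = 0.145). The other subunits *Epas1* (−0.05), *Hif3a* (0.22) and *Arnt* (−0.08), the ubiquitin ligase subunit *Vhl* (0.10), the prolyl hydroxylases *Egln1* (−0.09), *Egln2* (−0.04) and *Egln3* (0.09) and the asparaginyl hydroxylase *Hif1an* (0.06), each with its log2 fold change, were not called either. For *Hif3a* and *Egln3* this mean covers differences in both directions. *Hif3a* was at 4.21 CPM in chondrocyte-marker cells against 2.29 in the others at E12.5 and 5.39 against 2.58 at E13.5, but at 3.38 against 6.20 in the proximal and 3.40 against 8.41 in the distal segment (difference between v3 and v2 libraries −1.51, adjusted p = 0.0589 in edgeR). *Egln3* was at 8.17 CPM against 2.01 in whole 1 and 8.38 against 1.75 in whole 2, but at 3.13 against 5.81 at E11.5. At E11.5 *Egln3* (1.07), *Arnt* (0.54), *Vhl* (0.51) and *Egln2* (0.29) were higher in sorted cells than in whole limbs, and *Hif1an* lower (−0.58), with 1 sorted library and in a fit that called 26.3% of all genes higher and 25.9% lower.

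Of 21 other HIF targets, 4 were higher and 2 lower in chondrocyte-marker cells. *Plod2*, a collagen lysyl hydroxylase, was higher in all 8 libraries (1.13 ± 0.22, adjusted p = 0.00449), with 289.6 CPM against 54.8 at E16.5 proximal. The collagen prolyl hydroxylase subunits *P4ha1* (0.66 ± 0.15, 0.0129) and *P4ha2* (0.63 ± 0.17, 0.0227) were higher too, and *Bhlhe40* (0.54, 0.0284). The first 3 of these act on collagen, the main product of cartilage. *Ndrg1* was lower in all 8 libraries (−0.97 ± 0.14, adjusted p = 0.00118), as was *Mxi1* in 7 (−0.32, 0.0107). *Bhlhe40* and *Mxi1* are named after their values were seen. Over all genes tested 5.78% were higher and 13.7% lower, and the list's median log2 fold change was 0.03 against −0.06.

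By their medians, mitochondrial lists went the other way by a small amount, although *Pdk3* (0.22 ± 0.11) and *Cox4i2* (0.49 ± 0.37) were higher without a call. Both are named after their values were seen. Of 13 respiratory chain genes, 7 were lower and none higher in chondrocyte-marker cells (median −0.23, against −0.06 over all genes and 13.7% of genes lower), among them *Cox6c* (−0.40 ± 0.08, adjusted p = 0.00699), *Uqcrc1* (−0.30 ± 0.06), *Atp5b* (−0.26 ± 0.06) and *Cox4i1* (−0.23 ± 0.05). Of 14 genes of pyruvate oxidation and the citric acid cycle, 4 were lower and none higher (median −0.15), namely *Fh1* (−0.39 ± 0.09, adjusted p = 0.0103), *Sdhb* (−0.26), *Pdha1* (−0.26 ± 0.08, 0.0354), the subunit of pyruvate dehydrogenase that *Pdk1* phosphorylates, and *Mdh2* (−0.25).

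Of 8 other genes of the VEGF system, 3 were lower in chondrocyte-marker cells and none higher (median −0.95, against −0.06 over all genes, of which 13.7% were lower and 5.78% higher), namely the lymphatic ligands *Figf* (−1.95 ± 0.23, adjusted p = 0.000264) and *Vegfc* (−0.95 ± 0.16) and the co-receptor *Nrp1* (−1.15 ± 0.33, 0.0347). For *Nrp1* this mean covers differences in both directions. *Nrp1* was at 100.8 CPM in chondrocyte-marker cells against 90.4 at E11.5, but 45.3 against 208.3 at E16.5 proximal. *Nrp2*, named after its values were seen, was at 63.5 CPM against 34.6 at E16.5 proximal but 58.3 against 131.2 in whole 2. The list's median log2 ratio was 0.07 and 0.08 in whole 1 and whole 2, and −1.26 and −1.56 at E16.5 proximal and distal. Of 4 hypertrophic genes, *Panx3* (3.06) and *Ihh* (2.98) were higher and *Pth1r* lower (−0.70), against the same shares of all genes. *Col10a1* (4.87, adjusted p = 0.0536 in edgeR) did not pass. *Panx3* and *Ihh* were low, at 1.52 and 6.57 CPM in chondrocyte-marker cells of E16.5 proximal and 0 in those of E12.5. *Pth1r* was at 11.1 CPM against 22.6 at E11.5, but 84.3 against 91.0 at E16.5 proximal. Of 9 immediate early and stress genes, 3 were lower and none higher, namely *Hspa1b* (−0.91), *Atf3* (−0.85) and *Hspa1a* (−0.83). *Fos* (0.54 ± 0.20), *Egr1* (0.28) and *Fosb* (0.16), named after their values were seen, lay above 0 without a call.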

How the data were processed

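Libraries were 10x Chromium 3' single-cell RNA-seq. The deposited values are UMI counts with no normalization, 1 per gene in each barcode, made by the authors with Cell Ranger against a modified mm10 reference, and file headers give version 6.0.1 for E16.5 distal and 3.0.2 for the other sorted libraries. The study's reporting summary names 1 other version for all its single-cell data, and the headers of the whole limb files name none. Cells with at least 3000 UMIs and no more than 10% mitochondrial UMIs were kept. No doublet caller was run, and leaving out the 5% of cells with the most UMIs was an alternative.

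Each library was clustered with scanpy 1.11.5 and leidenalg 0.10.2 (2000 variable genes, 50 components, 25 neighbours, resolution 1) without the members or the related gene lists, and a cluster was named from fixed markers, with unnamed clusters kept among the mesenchymal cells. Counts were summed per library and class. Sums were tested with edgeR 4.0.16 (R 4.3.3), using TMM scaling, the quasi-likelihood test and Benjamini-Hochberg adjustment over all genes tested, with library as a term in the class comparison, and a product of class and kit added for the difference between kits. The SE given for an edgeR value is the absolute log2 fold change divided by the square root of the test's F statistic. P-values of the class fits measure how the difference between classes varied over libraries that differ in stage, segment, kit or sort. Those of the E11.5 fit measure the spread between the whole limb libraries. Both may be technical. The code was tested on simulated data. For values of 1 library, exact 95% intervals were used, which cover the counting error alone.

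DESeq2 1.42.0, limma 3.58.1, no filter on low counts, other class definitions, thinning to 3000 UMIs, a mitochondrial limit of 5% and leaving out each library were tried. The comparison by single cluster, with and without clusters led by genes of other cells, chondrocyte-like clusters as the class and leaving out the keratin-led cluster were made after seeing the data. The members and the gene lists were chosen with earlier results of these data known. By the rule for named genes, all members were named in each comparison (in those without a test, members short of the fold counted were in part left out), with the 4 genes per related list that had the largest change among those past the threshold (6 for the HIF targets), all genes of the oxygen-sensing list and the 8 genes most like the members' mean.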

Additional observations from a re-analysis of the deposited data

Results flagged for a closer look

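The difference between chondrocyte-marker and other cells was itself larger in the v3 libraries (E14.5 and later) than in the v2 libraries for 3 of the 10 genes, by edgeR's quasi-likelihood test of the interaction. It was larger by 1.54 on the log2 scale for *Eno1* (adjusted p = 0.0209), by 1.12 for *Slc2a1* (0.0309) and by 0.97 for *Pgk1* (0.0414). When 1 library at a time was left out, *Eno1* passed the threshold in 4 of 8 fits (adjusted p 0.00467 to 0.0995), *Slc2a1* in 2 (0.00918 to 0.132) and *Pgk1* in 2 (0.00880 to 0.173). Kit and stage cannot be told apart here, and read sharing between *Eno1* or *Pgk1* and their near-identical copies was not tested.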

How the results depend on the processing

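Of 550 values of single members under alternatives, 453 stayed the same, 57 lost the call, 12 gained one, 21 changed sign and 7 moved without a test. The same meant the same direction and side of the threshold or, without a test, a value within 1 SE of the main one. At E11.5, 7912 genes were called, but 4699 by DESeq2 (1911 higher, 2788 lower) and 5031 without the filter on low counts, where 2 members were lower; leaving out a whole limb library left no test. Between classes, 4 members were called, but 1 with at least 2 markers, 1 with chondrocyte-like clusters, 2 in v2 libraries (1393 genes), 8 in v3 libraries, 0 with no library block (138 genes in place of 3125) and 1 to 4 when 1 library was left out (1 without E14.5 or E16.5 distal, 2 without E13.5). The sign turned for *Aldoa* with at least 2 markers (−0.065), in v2 libraries (−0.080) and on leaving out 1 library (−0.0089 to 0.095), and in v2 libraries for *Pgk1* (−0.013) and *Vegfa* (0.0051). For the difference between kits, 656 genes and 3 members were called, against 1451 and 5 by DESeq2, 423 genes after thinning, 1 member with all other cells, 18 genes and 0 members with chondrocyte-like clusters, and 37 to 1337 genes and 0 to 5 members when 1 library was left out (fewest without E16.5 distal, most without E14.5 and, for members, E13.5). *Pfkp* there turned to −0.089 by limma-voom, −0.12 without the filter, −0.079 with at least 4 markers, −0.17 with all other cells, −0.36 after thinning, −0.12 without the cells with the most UMIs, −0.0014 at the 5% mitochondrial limit and −0.61 without mitotic cells, and spanned −0.33 to 0.46 when 1 library was left out. *Pdk1* turned to −0.043 with at least 4 markers and −0.029 with all other cells, and *Vegfa* to 0.032 with chondrocyte-like clusters. From E14.5 to E16.5 proximal, 2 members in place of 1 were higher with all cells, after thinning and without mitotic cells. Between E16.5 segments in other cells, 0 were higher with all other cells and 1 after thinning, in place of 2. Depth limits *Pfkp* most, with 5 UMIs in chondrocyte-marker cells of E11.5.
The comparison of classes is paired by library through its library term. For sorted against whole limb E11.5, no paired analysis was possible because these groups share fewer than 2 replicate numbers.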
